A study of Xenopus tropicalis with 2 samples.

Results

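Genes of vesicle tethering and Rab trafficking were examined for thyroid hormone receptor (TR) binding signal in the tadpole brain. They were defined by symbol, as genes whose name starts with vps, exoc, trappc, cog, rab, sec, copb, copg or arf followed by the numbering of these families. Of 5285 genes with at least 1 peak, 75 gene entries matched, and they held 82 of the 5214 peaks that lay in gene regions. The signal came from chromatin immunoprecipitation followed by sequencing (ChIP-seq) in wild-type Xenopus tropicalis at Nieuwkoop-Faber stage 62, the climax of metamorphosis. The tissue was the middle part of the brain, with the preoptic area, hypothalamus and thalamus, from animals reared at 25 °C. There was 1 library from a polyclonal antiserum to Xenopus TRs and 1 input library from the same tissue with no antibody, and neither was replicated. No test between groups was therefore possible. Values describe this peak list, and intervals cover counting error of the ChIP fragments or of the gene counts only.

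TRs are nuclear receptors that bind DNA in the presence and absence of hormone and change transcription of the genes they bind. Membrane traffic moves cargo between the endoplasmic reticulum (ER), Golgi, endosomes and plasma membrane in vesicles. Coats form the vesicles, Rab and Arf GTPases mark the membranes, and tethering complexes such as the exocyst, COG, TRAPP, HOPS and GARP hold a vesicle at its target before fusion. In neurons the same machinery supplies axons, dendrites and synapses with membrane and receptors.

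Marker genes were first looked up in the list as a whole. All 7 neuronal marker genes checked (snap25, syt1, tubb3, elavl3, gria2, map2 and stmn2) had a peak, as did the hormone response genes thrb, klf9 and thibz, while 0 of 5 oligodendrocyte, 0 of 3 microglial and 0 of 5 liver and gut markers found in the reference table did. Of all named protein-coding genes, 29.8% had a peak, so a count of 0 among so few markers says little. A peak is no measure of expression, and which cells carried the signal was not tested. A median of 25 ChIP fragments covered a peak summit in gene regions (range 8 to 172) over a median expected background of 5.53. Fold enrichment is the authors' own value for each peak, ChIP over background at the summit.

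The label covers more than tethers. Among the 75 entries, sec61a1, sec61b, sec61g and sec62 belong to the channel that passes new proteins into the ER, sec11a is a subunit of signal peptidase, and vps13b and vps13d encode lipid transfer proteins. The description decided the name for 6 entries. The deposited names kcnip1, trim13, nr6a1 and stk38l stood at cog5, vps13d, rab39b and exoc3l2, and 2 entries deposited as rab5c and rab2b were n6amt1 and map10 and were left out. A further entry deposited as trappc12 had no description, and its name was the same as that of a described trappc12 gene elsewhere on chromosome 5. It was kept under the rule, but its peak (fold 3.52, 2.26 to 5.25) lay 393 bp from the start of trim67.

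Trafficking genes held a peak more often than named genes in general. Of 176 genes with such symbols in the reference table, 74 (42.0%, exact 95% binomial interval 34.7 to 49.7%) had a listed peak, against 29.8% of all 15628 named protein-coding genes. A peak within 1 kb of the gene's own transcription start site (TSS) was found for 59 of 176 (33.5%, 26.6 to 41.0%), against 22.0% of all named genes. The difference from all genes shrank when peaks paired with several genes were left out: 38 of 176 (21.6%, 15.8 to 28.4%) then had a peak, against 18.2%. Of the members, 37 of 75 (49.3%, 37.6 to 61.1%) therefore owed their place in the list to peaks that a neighbouring gene also held. A peak paired with no other gene was left for 38 of the 75 members and for 3010 of all 5285 genes with a peak. Such a loss was thus common to genes with a peak in general.

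The share with a peak differed between gene families. Among vps genes, which take their name from yeast vacuolar protein sorting mutants, 21 of 34 had a peak (61.8%, 43.6 to 77.8%). The shares were 8 of 15 for trappc (53.3%), 4 of 8 for cog, 11 of 25 for sec (44.0%) and 3 of 7 for arf (42.9%). They were 5 of 13 for exoc (38.5%) and 1 of 4 for the copb and copg genes of COPI (25.0%). The Rab GTPases themselves had 17 of 59 (28.8%, 17.8 to 42.1%), close to the 29.8% of all genes. Other genes named after a Rab, grouped here as effectors and regulators, had 4 of 11. The interval of the vps family lay above the share of all genes, and the intervals of the other families included it. Families were read side by side, and differences between them were not tested.

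**Figure D1:**
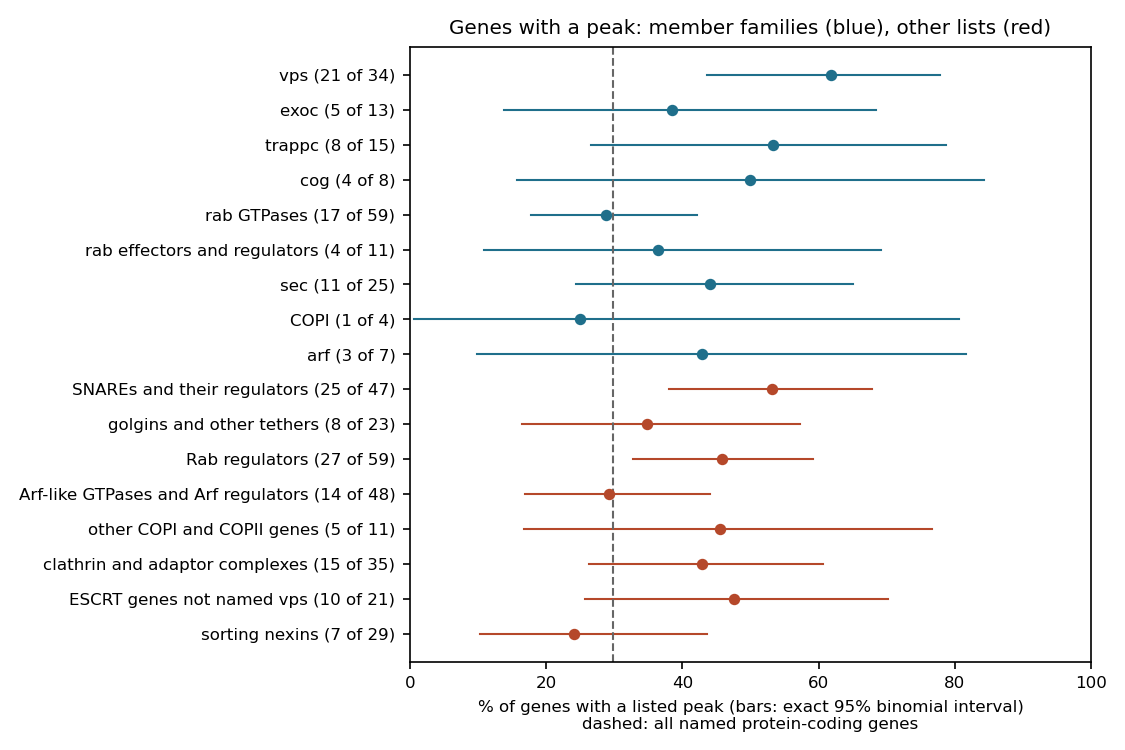
Percentage of genes with a listed TR ChIP peak (x axis) in each member family (blue) and in 8 other lists of membrane traffic genes (red), with exact 95% binomial intervals as bars. The dashed line is the 29.8% of all named protein-coding genes, below the interval of the vps family and inside that of the Rab GTPases.

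Gene length did not order these shares simply. Median reference length was 18.6 kb for the 74 trafficking genes with a peak and 21.1 kb for the 102 without, against 20.4 kb for all named genes. With all named genes split into 4 equal classes of length, in the class shorter than 9.82 kb, 16 of 29 trafficking genes (55.2%) had a peak against 28.4% of all genes of that length. In the next classes the values were 22 of 56 (39.3% against 29.3%), 17 of 56 (30.4% against 27.1%) and, above 44.8 kb, 19 of 35 (54.3% against 34.5%).

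Fold at trafficking genes was close to that of other genes with a peak. The highest fold per member had a median of 4.72 (quartiles 3.51 to 6.34, range 2.53 to 14.0), and the median over all genes with a peak was 4.39 (3.61 to 5.52). The interval of the members' median, 4.06 to 5.21, included the latter. A fold of 8 or more was reached by 7 of 75 members (9.33%, 3.84 to 18.3%), against 6.36% of all genes with a peak. By significance, 26 of 75 members (34.7%, 24.0 to 46.5%) held 1 of the 1000 strongest peaks, against 25.6%. Few members had several peaks: 6 of 75 (8.0%, 2.99 to 16.6%) had 2 or more, against 17.9% of all genes with a peak.

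**Figure D2:**
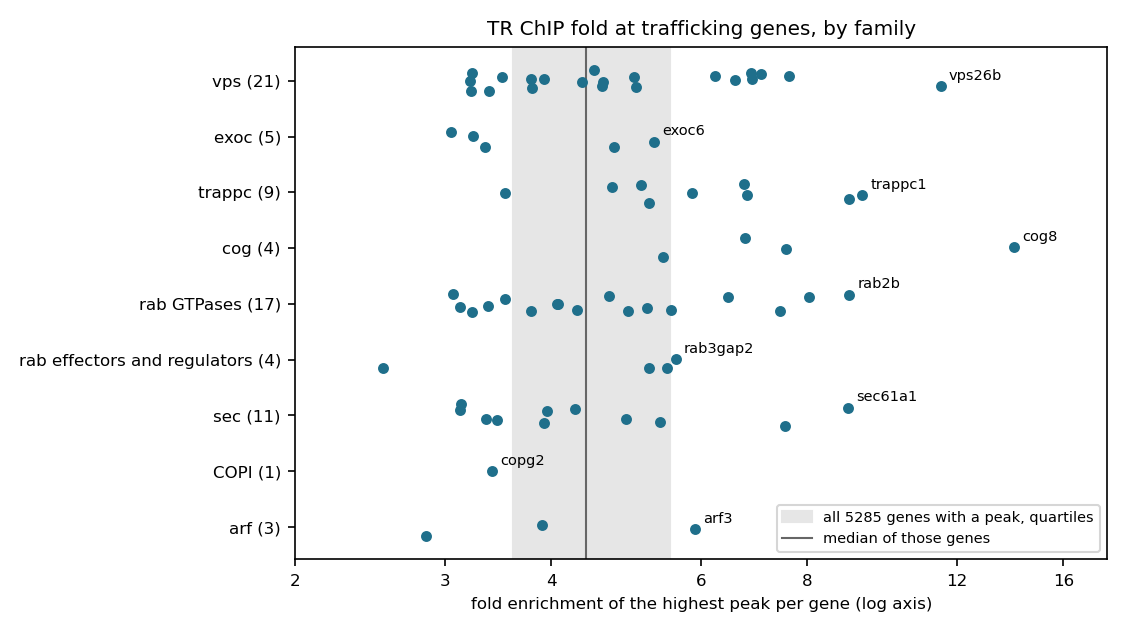
Fold enrichment of the highest peak of each of the 75 members (points, log axis), by family, with the number of entries in brackets and the highest gene named. The grey band and line are the quartiles (3.61 to 5.52) and the median (4.39) over all 5285 genes with a peak; cog8 at 14.0 and vps26b at 11.5 stand highest.

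Of the 12 complexes and gene sets considered, COG had the highest median fold, 7.15 over 4 genes with a peak. Counts of genes with a peak per complex, here and below, stand beside 29.8% of all named genes. Each complex has few genes, and no count was tested against that share. COG has 8 subunits and tethers vesicles that recycle enzymes within the Golgi. The subunit gene cog8 had the highest fold of all members, 14.0 (11.4 to 17.0) with 99 ChIP fragments where 6.14 were expected, and its peak ranked 30 by fold among all 6302 peaks. That peak lay on chromosome 4 (62239258 to 62239978) with its summit 19 bp upstream of the TSS of cog8. The fold was 7.55 (5.42 to 10.2) at cog5 on chromosome 3 (66845028 to 66845569), 6.75 (4.85 to 9.16) at cog4 on chromosome 4 (26995748 to 26996322) and 5.41 (3.92 to 7.30) at cog1 on chromosome 10 (23012613 to 23013593). No peak was listed for cog2, cog3, cog6 or cog7. All 4 COG peaks lay within 95 bp of the COG gene's start and also at the start of a gene on the other strand. Those partners were nip7, a ribosome assembly gene, dus4l, the splicing factor gene sf3b3 and an unnamed locus.

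TRAPP, a set of complexes that tether vesicles and activate Rabs at the Golgi, had peaks at 8 of 14 subunit genes. The core subunit gene trappc1 had a fold of 9.28 (7.28 to 11.7) from 71 ChIP fragments, on chromosome 3 (131411550 to 131412078) with the summit 895 bp upstream of the TSS, in a peak paired with no other gene. At trappc11 the fold was 8.96 (6.92 to 11.4), with the summit 25 bp past the TSS on chromosome 1 (35862343 to 35862816) and rwdd4 starting on the other strand. The core gene trappc2 had 6.74 (4.92 to 9.02) at 54 bp upstream, in a peak also paired with ofd1. The widest member peak, 1031 bp on chromosome 7 (85216398 to 85217428), lay at trappc4, with a fold of 5.85 (4.25 to 7.86), but its summit was 20 bp from the start of the ribosomal protein gene rps25 and 443 bp from that of trappc4. The TRAPPII gene trappc9 had 2 peaks, of which the higher (6.79, 4.79 to 9.37) lay 5.66 kb upstream and 8 bp from the start of chrac1. The other lay 123.2 kb into trappc9 with a fold of 4.15 (2.64 to 6.24), the farthest of all member peaks from its TSS.

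The exocyst, which holds secretory vesicles at the plasma membrane, had peaks at 4 of 8 subunit genes, with a median fold of 4.04. The folds were 5.28 (3.55 to 7.60) at exoc6, 4.73 (3.18 to 6.81) at exoc7, 3.34 (2.27 to 4.75) at exoc5 and 3.23 (2.27 to 4.48) at exoc4, each with its summit 45 to 152 bp from the TSS. No peak was listed for exoc1, exoc2, exoc3 or exoc8. The exoc7 peak was also paired with an unnamed gene, and the exoc5 peak lay within 1 kb of the start of ap5m1 on the other strand. The related gene exoc3l2 had a fold of 3.05, in a peak also within 1 kb of the start of nova2 on the other strand. These folds overlapped one another within their intervals, and the interval of the highest, exoc6, lay below that of cog8.

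Among the endosomal vps genes, every gene considered of retromer and retriever had a peak. Retromer, the coat that returns receptors from endosomes, had peaks at all 4 core genes. The sister complex retriever had peaks at all 3, with vps29 counted in both. The retromer gene vps26b had the second highest member fold, 11.5 (9.23 to 14.1) from 88 ChIP fragments, on chromosome 7 (49552775 to 49553453) with the summit 170 bp upstream of the TSS, where the condensin gene ncapd3 starts on the other strand. Its paralogue vps26a had 4.56 (3.04 to 6.61) at 48 bp upstream on the same chromosome, and a higher peak (6.24, 4.50 to 8.44) at 4.18 kb upstream whose nearest start, 679 bp away, was that of supv3l1. The interval of vps26b did not overlap those of either vps26a peak. At vps26c, vps35l, vps29 and vps35 the folds were 5.03, 4.59, 3.92 and 3.80, with intervals that overlapped. The vps29 peak was also paired with rad9b, and the vps35 peak with orc6, which starts on the other strand. Every peak of the 4 retromer genes was thus shared with another gene, while those of vps26c and vps35l were not.

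The tethers of endosomes and lysosomes were covered in part. GARP and EARP, which share most subunits, had peaks at 4 of 5 genes, namely vps50 (4.58), vps52 (6.87), vps53 (5.01) and vps54 (4.34), but the vps52 summit was 37 bp from the start of the ribosomal protein gene rps18 and 557 bp from that of vps52. HOPS and CORVET had 3 of 7, too few genes to set apart from the 29.8% of all named genes. The CORVET gene vps8 had a fold of 7.60 (5.81 to 9.79) on chromosome 9 (50104638 to 50105151). The summit was 3 bp from its TSS, the nearest of all member peaks, but rpe also starts within 1 kb on the other strand. Another vps8 peak lay deep in the gene, 93.8 kb from the TSS (4.91, 3.05 to 7.53). The core gene vps16, on an unplaced scaffold, had 6.89 (5.05 to 9.20) in a peak paired with no other gene, and vps33a had 3.23 (2.18 to 4.61). No peak was listed for vps11, vps18, vps39 or vps41. Among vps-named genes of ESCRT, which sorts cargo into multivesicular bodies, 5 of 8 had a peak. The ESCRT-I gene vps37a had 7.05 (5.38 to 9.07) on chromosome 1 (33083493 to 33084209), 57 bp upstream of its TSS and 9 bp from that of cnot7, and the others, vps4b, vps25, vps36 and vps37d, lay between 3.21 and 3.78.

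**Figure D3:**
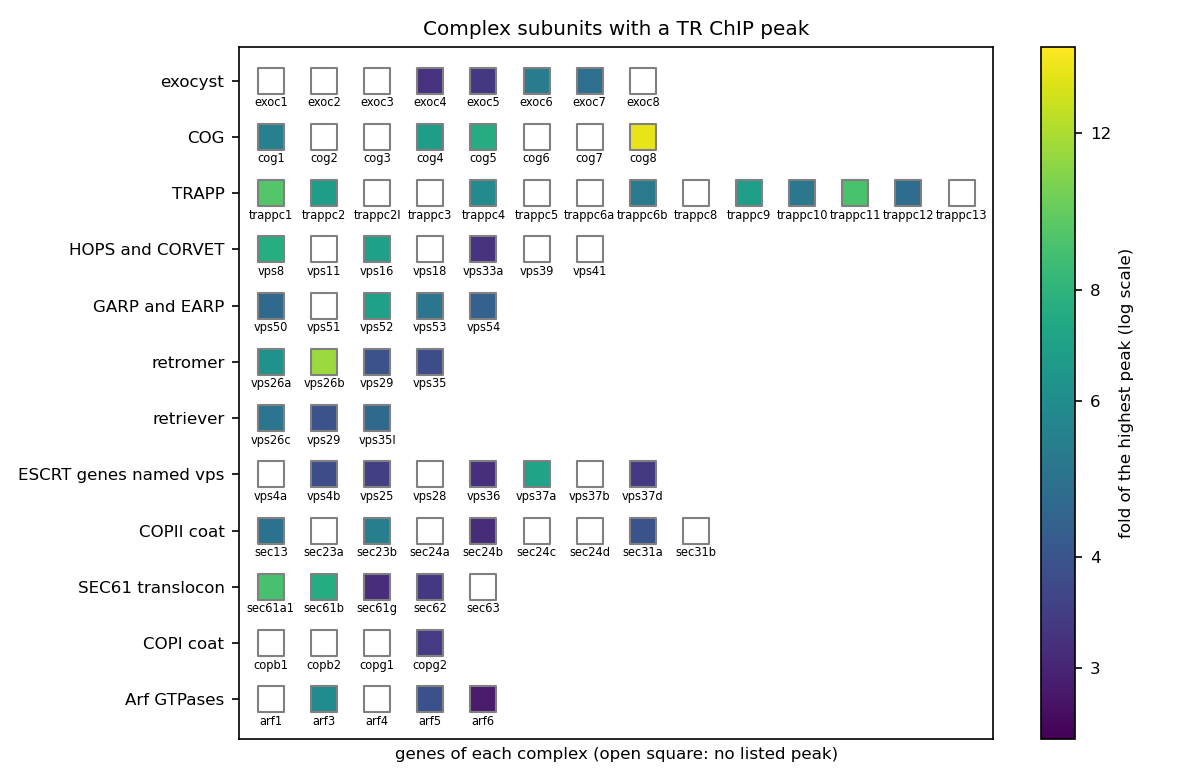
Genes of each complex (squares), coloured by the fold of their highest TR ChIP peak on a log scale; open squares had no listed peak. Retromer and retriever are filled throughout, COG, COPII and exocyst in part, and cog8 (14.0) and vps26b (11.5) are the brightest. The COPI row holds only the copb and copg genes, not the whole coat.

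The Rab GTPases, molecular switches that give each membrane its identity, fell into genes with a peak at their own start and genes with a peak elsewhere. Of 19 peaks at Rab GTPase genes, 11 lay within 1 kb of the gene's TSS, a share near the 56.7% of all pairs of a peak and a gene. The highest fold was at rab2b, a Rab of the ER and Golgi, with 8.96 (7.35 to 10.8) from 107 ChIP fragments on chromosome 1 (129550877 to 129551457), although the summit was 249 bp upstream of rab2b and 23 bp from the start of tox4. Its paralogue rab2a had 5.52 (3.68 to 8.0) at 159 bp past the TSS on chromosome 6, in a peak of its own. The recycling endosome gene rab11a had 6.44 (4.80 to 8.48) at 204 bp upstream on chromosome 3 (117331736 to 117332251), also in a peak of its own. Lower folds with overlapping intervals were found near the starts of the late endosome gene rab7a (4.07, 2.59 to 6.12), the ER-to-Golgi gene rab1a (3.23, 2.21 to 4.56) and the early endosome gene rab5a (3.06, 1.91 to 4.70). The rab5a peak was also paired with efhb. The peak nearest to a Rab start was that of rab30 (13 bp, fold 3.12).

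High folds listed at rab25 and rab33a lay at the starts of other genes. The peak of the epithelial Rab gene rab25 (8.04, 6.09 to 10.4; chromosome 8, 111845904 to 111846702) lay 8.04 kb upstream and 68 bp from the start of lamtor2, with ubqln4 beside it. The peak of rab33a (7.42, 5.79 to 9.38; chromosome 8, 17167360 to 17167872) lay 9.59 kb upstream and 79 bp from the start of aifm1, a gene of mitochondrial function and cell death. The Rabs of regulated secretion had peaks of low or middling fold. The synaptic vesicle gene rab3c had 4.06 (2.63 to 6.0) at 34 bp upstream, and rab27b had 4.67 (2.53 to 8.05) 23.04 kb into the gene, from 11 ChIP fragments. The gene rab26 had the most peaks of any member, 3, all 52.5 to 94.9 kb into the gene on chromosome 9, with folds of 4.92 (2.93 to 7.80), 3.88 (2.44 to 5.90) and 3.4 (2.06 to 5.32) that overlapped. No peak was listed for rab3a, rab3b, rab3d or rab27a.

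Among the 4 genes named after a Rab and grouped here as effectors and regulators, 3 had folds of 5.21 to 5.60 with overlapping intervals. Both subunits of the complex that inactivates Rab3 and activates Rab18 had a peak, rab3gap2 with 5.60 (4.02 to 7.60) at 139 bp upstream and rab3gap1 with 5.21 (3.15 to 8.16) 19.1 kb into the gene. At rab5if, grouped by its name only, the fold was 5.46 (3.61 to 7.96), 8 bp upstream of the start, in a peak also paired with ggt7. The gene rab3ip, whose product activates Rab8, had 2.53 (1.71 to 3.62) at 198 bp upstream, the lowest of all members, and its background of 10.4 fragments was high among member peaks.

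Among the sec, COPII and COPI genes, the highest folds lay at sec61a1 and sec61b of the ER channel. The channel gene sec61a1 had 8.92 (7.04 to 11.2) from 75 ChIP fragments on chromosome 4 (124437737 to 124438233), 252 bp upstream of the TSS, where a U4 small nuclear RNA entry was also paired. The subunit gene sec61b had 7.52 (5.80 to 9.61) on chromosome 6 (82175634 to 82176408), 200 bp upstream and 193 bp from the start of alg2. The third subunit gene, sec61g, had 3.13 (2.16 to 4.41), below the intervals of both. COPII, the coat of vesicles leaving the ER, had peaks at 4 of 9 genes, sec23b (5.36, 3.63 to 7.67), sec13 (4.90, 3.38 to 6.89), sec31a (3.95) and sec24b (3.12). The sec23b summit was 33 bp from the start of dusp12, and the sec24b summit 193 bp from that of the ribosomal protein gene rpl34. The sec13 peak was also paired with cand2 and an entry provisionally named rpl32, and had starts on both strands within 1 kb. The peak of the SNARE gene sec22b (3.45) lay 78.0 kb into the gene and 467 bp from the start of imp3. Of COPI, the coat of Golgi vesicles, only the 4 copb and copg genes fell under the symbol rule. Among them 1 had a peak, copg2 with 3.41 (2.44 to 4.64) at 138 bp past the TSS. Peaks were also listed at the coat genes arcn1 (5.23), copz2 (4.50) and cope (3.65), which the rule does not cover. Each of these was paired with 2 genes. They are counted below among further COPI and COPII genes, of which 5 of 11 had a peak.

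Arf GTPases recruit coats to membranes, and 3 genes had a peak. At arf3 the fold was 5.90 (4.43 to 7.70), 196 bp upstream of the TSS on chromosome 10 (8787230 to 8787898), in a peak that also overlapped the region of the SNARE recycling gene nsf. The peaks of arf5 (3.90, 2.11 to 6.73) and arf6 (2.85, 1.73 to 4.47) lay 5.80 and 7.68 kb upstream and rested on 11 and 17 ChIP fragments. No peak was listed for arf1 or arf4.

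Member peaks lay within 1 kb of gene starts more often than peaks in general. The summit lay within 1 kb of the member's own TSS in 60 of 82 pairs of a peak and a member (73.2%, 62.2 to 82.4%), against 56.7% of all 6760 pairs. Within 200 bp the values were 41 of 82 (38.7 to 61.3%) against 33.3%. Counting the start of any gene, 66 of 82 (80.5%, 70.3 to 88.4%) lay within 1 kb, against 68.7%. With a window of 2.5 kb these shares came closer, 82.9% against 76.6%, and with 0.5 kb they were 75.6% against 60.5%. Of the other member pairs, 13 had the summit inside the gene and 9 upstream, and 6 of these 22 lay within 1 kb of the start of another gene. Over all 6760 pairs, 3834 lay within 1 kb of the gene's own TSS and 4646 within 1 kb of any TSS. Pairs near the start of another gene only were thus common in general, and the 6 are no trait of the members. The pairs just inside the 1 kb limit were rab39b (771 bp) and trappc1 (895 bp), and those just outside were vps13b (1.36 kb) and vps37d (1.72 kb).

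Near the start, summits at trafficking genes lay mostly upstream. Of the 60 pairs within 1 kb, 40 (66.7%, 53.3 to 78.3%) had the summit upstream of the TSS, against 45.7% of all such pairs. Some of the 40, such as those of cog8, vps26b, rab2b and trappc4, were in peaks that also had a start on the other strand within 1 kb. At rab2b and trappc4 the start of the other gene was the nearer. Whether the upstream share differs without such peaks was not tested. The median distance was 149 bp for members and 157 bp for all pairs. Gene starts are those of the deposited models, with 1 start per gene, so an error in a model moves a summit from one side to the other.

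**Figure D4:**
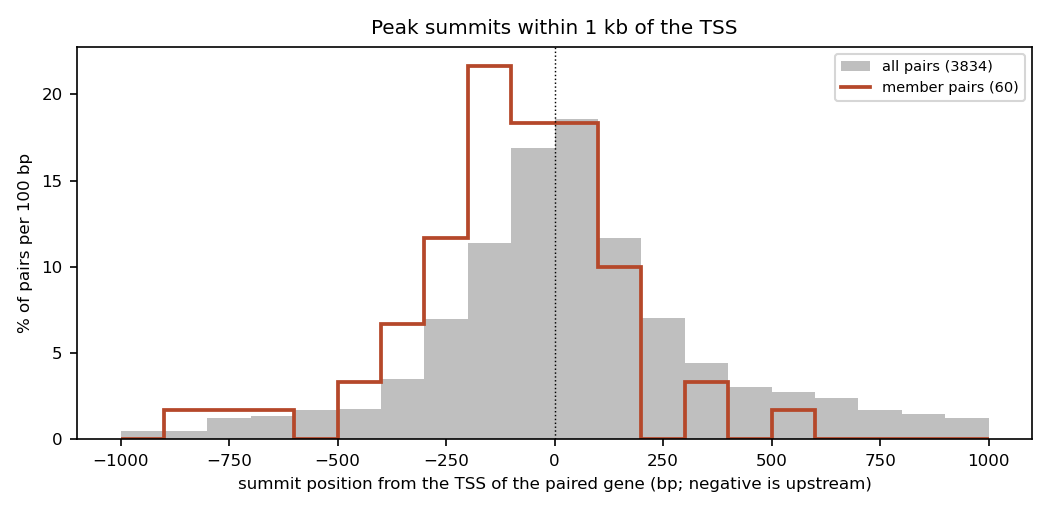
Position of peak summits relative to the TSS of the paired gene (x axis, bp, negative upstream), as the percentage of pairs per 100 bp, for the 60 member pairs (red line) and all 3834 pairs (grey). Member summits are shifted to the upstream side, 66.7% against 45.7%.

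Peaks shared between genes were common among members and in the list as a whole. Of 82 member peaks, 40 (48.8%, 37.6 to 60.1%) were paired with more than 1 gene, and the interval included the 41.4% of all pairs. Such pairing means that gene regions overlap at the peak, and the starts of the genes may be far from it. Of the 66 member peaks near any TSS, 22 (33.3%, 22.2 to 46.0%) had starts on both strands within 1 kb, against 20.1% of all such pairs. Of these 22 peaks, 20 were near the member's own start, and those of rab25 and rab33a were not. The peaks at starts on both strands had higher folds, with a median of 6.81 (quartiles 5.25 to 7.59) against 4.31 (3.46 to 5.33) for the 44 member peaks with starts on 1 strand only. Over all peaks the medians were 4.59 and 4.11. They also held more ChIP fragments, 46.0 against 27.5 at the median, over backgrounds of 6.56 and 5.55. The ranges overlapped, from 3.05 at exoc3l2 to 14.0 on both strands and from 2.53 to 9.28 at trappc1 on 1 strand. Which of a pair of genes such a peak belongs to cannot be told apart from these files.

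**Figure D5:**
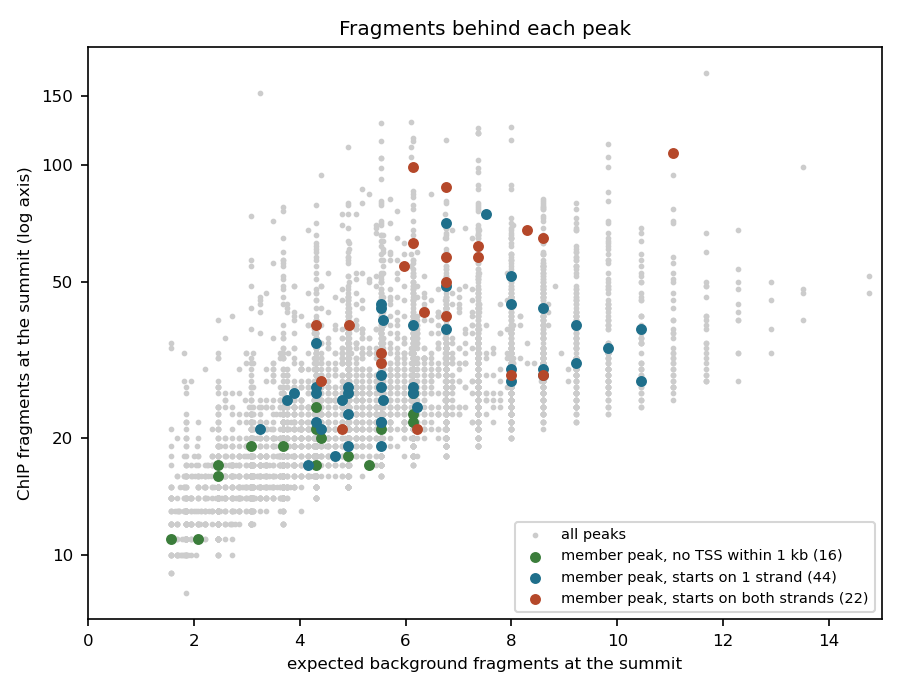
ChIP fragments at the summit (y axis, log scale) against the expected background fragments (x axis) for all peaks (grey; 3 peaks with a background of 15 or more are not drawn) and for member peaks by the gene starts near them (colours). Peaks at starts on both strands reach 107 ChIP fragments at rab2b, and member peaks far from any TSS lie at the lower end.

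Other genes of membrane traffic showed a share of peaks like that of the trafficking genes when shared peaks were counted. Across 8 lists with 273 genes outside the symbol families, 111 had a peak (40.7%, 34.8 to 46.7%), against 29.8% of all named genes. With peaks paired with 1 gene only, the share was 27.5%, against 21.6% of the 176 trafficking genes and 18.2% of all named genes. Some peaks counted more than once: nsf was counted through the peak of arf3 and ap5m1 through that of exoc5, and arl2 and snx15 shared a peak. SNAREs and their regulators, which drive fusion, had 25 of 47 (53.2%, 38.1 to 67.9%). The SNAP gene napb had a fold of 10.2 (7.68 to 13.3), followed by the Golgi SNARE genes gosr2 (9.43, 7.25 to 12.1) and stx5 (7.29, 5.59 to 9.34), all within 66 bp of the TSS. Regulators of Rabs had 27 of 59 (45.8%, 32.7 to 59.2%), led by madd, an activator of Rab3 (11.4, 9.09 to 14.0), and ESCRT genes not named vps had 10 of 21 (47.6%, 25.7 to 70.2%), led by chmp3 (10.3, 7.30 to 14.1) and chmp4b (8.49). Clathrin and adaptor genes had 15 of 35 (42.9%, 26.3 to 60.6%), further COPI and COPII genes 5 of 11 (45.5%, 16.7 to 76.6%), and golgins and other tethers 8 of 23 (34.8%, 16.4 to 57.3%), where the peak of uso1 (12.4) lay 9.46 kb upstream. Arf-like GTPases and Arf regulators had 14 of 48 (29.2%, 17.0 to 44.1%) and sorting nexins 7 of 29 (24.1%, 10.3 to 43.5%). The intervals of SNAREs and of Rab regulators lay above the share of all genes, and those of the other lists included it.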

How the data were processed

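The deposited peak list of the TR ChIP library was analysed, with 7848 lines for 6302 peaks. Per the submitters' processing notes, MACS2 2.2.6, BWA 0.7.17, deepTools 3.5.1, fastp 0.20.1, Picard 2.18.2, FastQC 0.11.9 and SAMtools 1.13 were among the tools; their roles are not stated. The genome build was not given in the sources used here, so coordinates are those of the deposited list. Of 1023 genes with an NCBI number, 0 started within 2 kb of their place in the reference table (UCB_Xtro_10.0). That table was used for names, for length and as the set of genes over which shares of genes with a peak were taken. A gene of that table that the deposited list lacked or named otherwise counted as having no peak. The deposited fold is a linear ratio of ChIP over background at the summit. The deposited p-values are −log10 values, and the lowest adjusted one was 1.31. The deposited score was 10 times that value, rounded down, in all 6302 peaks. Per the file headers, the authors paired a peak with each gene from 10 kb upstream to the gene end, and 6760 pairs resulted. Per the labels' protocols, chromatin was cross-linked, sonicated and precipitated at 5 µg per reaction.

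ChIP fragments and background were solved from fold and p-value, assuming MACS2's formula with 1 added to each; all 6302 peaks fitted within 0.0001 in −log10 p. On 500 simulated peaks the fragments were recovered in 500. These were made with the same formula, so they checked the solving step and not the formula. At a given background, the simulated counts did not reach those of cog8, vps26b or rab2b. Total depth is unknown. Intervals on folds are exact 95% Poisson intervals of the ChIP fragments, and do not cover the background's own error or the choice of peaks for high values, which biases the highest folds upward; those on shares are exact binomial.

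Names came from the NCBI gene cited in the description, where given, and otherwise from the deposited name; 336 genes with no usable name counted for no list. Background shares over pairs count a peak once per gene, as a peak with several genes has more chances to hold a member. Gene sequences were not used here. Named genes were the 4 highest folds per family, all members with 3 or more peaks, and the 3 widest, nearest and farthest peaks; the others named show coverage of complexes, well-known paralogues or shared starts and were chosen after their values were seen. Members and lists were chosen with earlier results of these data known. Alternatives varied the peak threshold, pairing, TSS window and names. Python 3.11.15, scipy 1.17.1 and pandas 2.3.3 were used.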

Additional observations from a re-analysis of the deposited data

How the results depend on the processing

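Of 36 alternative values, 27 stayed near the reported one: shares, medians and their ratio within its interval, and counts of genes within 1.5 times of it. With the 3151 stronger peaks, the share of member peaks within 1 kb of a TSS rose from 80.5% to 92.5% (77.1% of all pairs) and the median highest fold from 4.72 to 5.41 (5.12 over all genes), as weak peaks were left out. With the 1000 strongest peaks, 26 members remained, and all of their peaks (100%) lay near a TSS (85.3% of all pairs). Their median fold was 6.88 (6.61 over all genes), and 76.9% of their peaks were shared with another gene (62.3% of all pairs). At that setting 39 of the other traffic genes had a peak (14.3%, against 7.67% of all named genes). The share of trafficking genes with a peak was 28.98% against 18.96% of all named genes with the 3151 stronger peaks, and 14.8% against 7.67% with the strongest 1000. With peaks paired with 1 gene only, a setting chosen after the data were seen, 38 members remained and 69.0% of their peaks lay near a TSS (58.8% of all pairs). When a peak counted only for the gene whose TSS was nearest, 60 members remained (34.1% against 24.7%). By −log10 adjusted p-value the members' median was 1.001 times that of all genes, against 1.07 by fold. Low counts limit single folds: a median of 28 ChIP fragments lay behind a member peak, and a gene with no listed peak may fall below the authors' threshold.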
